A study of Bos taurus with 24 samples.

Results

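The response of the mammary miRNome to feed restriction that Holstein (HOLS) and Montbeliarde (MONT) cows had in common was described over 22 of the 24 libraries listed in the sample labels. These were every library with a column in the deposited tables, and they came from 5 HOLS and 6 MONT cows, each biopsied before the restriction (CONT, day 0) and at its end (REST, day 6). The raw counts of both breeds were joined by miRNA name, normalized together and compared between REST and CONT with the cow as a block, so that each cow served as its own control whatever its breed. One labelled HOLS cow was not analysed here.

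All cows were in midlactation, ate freely before day 0 and then received a reduced ration for 6 days. The labels put the ration at 60% of the net energy for lactation, and the study's methods give a different share. No cow stayed unrestricted until day 6, so the effect of the ration and that of the days between the biopsies cannot be told apart, and both are covered by the term period effect. The biopsies alternated between the left and right rear of the udder, and the part of the side was not tested. A number in the sample titles that the labels do not explain was lower for the CONT library in 11 of 11 cows, so the order it stands for and the period cannot be told apart either.

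miRNAs are short RNAs cut from hairpin precursors, which can release a mature miRNA from either arm. They guide Argonaute proteins to matching sites in mRNAs, whose translation and stability they lower, and precursors that lie close together are often transcribed as one cluster. In the lactating mammary gland miRNAs are made by the milk-secreting epithelium and by the myoepithelium, vessels, stroma and leukocytes around it. In a biopsy of such mixed tissue, fewer cells of a type and less of a miRNA per cell cannot be told apart. Holstein cows are a specialised dairy breed, and Montbeliarde cows are a French dairy breed also kept for beef.

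The total of miRNA counts per library lay between 6087865 and 18913916 (median 10947822.5), and 516 to 616 of 796 listed miRNAs had a count. The REST library was the deeper one in 9 of 11 cows, by a mean of 0.39 on the log2 scale (SD 0.40), with p = 0.0137 in a two-sided exact sign-flip permutation test over cows. Levels are therefore given as CPM, the counts of a miRNA relative to a fixed total of counts per library, after scaling by the trimmed mean of M values (TMM). When both libraries of each cow were thinned to the same total, 49 miRNAs passed the threshold, and 48 of them were among the 56 described here. The miRNAs known from mammary epithelium summed to between 14720 and 57660 CPM over the 22 libraries and those of skeletal muscle to between 40.7 and 191 CPM.

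The libraries labelled as cow 9615, a MONT cow, stood apart. After the mean of its breed and period was taken from each library, both libraries of the same cow correlated with r between 0.24 and 0.69 across miRNAs in 9 cows, with 0.11 in MONT cow 2614 and with -0.20 in cow 9615. When each cow was left out of the fit and then read, 83.3% to 100% of the miRNAs past the threshold in the other cows moved the same way in 10 of the cows. In cow 9615 it was 25 of 171 (14.6%), and the median change in the direction set by the others was -0.61 on the log2 scale. Over all miRNAs tested the share was 62.8% to 77.9% in the 10 cows and 26.8% in cow 9615. The sets were unlike in size, with 21 to 40 miRNAs in the 10 cows, whose fits held cow 9615, and 171 in cow 9615. The labels were kept as they are, and whether the CONT and REST labels of this cow are right was not tested. Exchanging them would turn the sign of every change in this cow. The results are therefore given with all 11 cows and then without cow 9615. Leaving this cow out was decided after its values were seen, and the counts and p-values without it are descriptions.

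**Figure D1:**
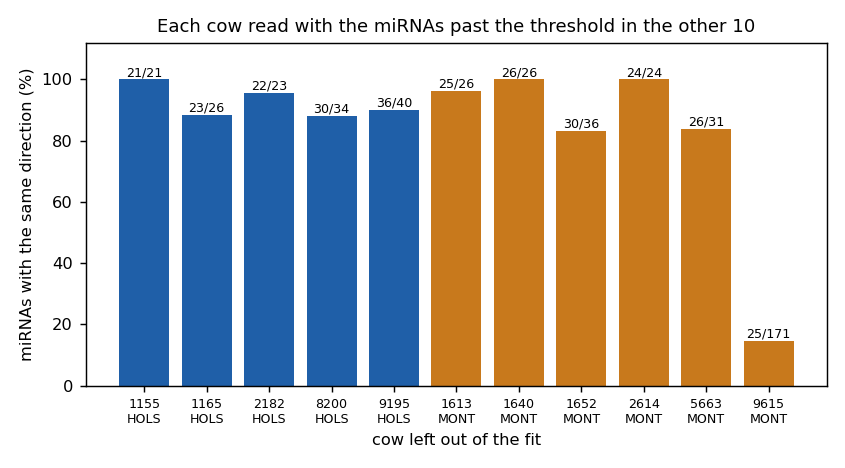
Share of miRNAs (y axis, in percent) that moved in a cow in the direction fitted in the other 10 cows, for miRNAs past the threshold in those 10. Each bar is the cow left out (x axis, blue HOLS and orange MONT) and the label gives the miRNAs with the same direction over those read. The bar of cow 9615 stands at 14.6% and the others between 83.3% and 100%.

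Of the 388 miRNAs tested, 56 (14.4%) differed between REST and CONT over both breeds in the quasi-likelihood test of edgeR, where the threshold was an adjusted p (Benjamini and Hochberg) of 0.05. Of these, 17 (4.38%) were higher in REST and 39 (10.1%) were lower. The miRNAs that fell were mostly scarce, and they included miR-299, miR-495, miR-500, let-7a-3p and the epithelial miR-200b. Those that rose were mostly abundant, and they included miR-181a, miR-181b, miR-25, miR-26b and the leukocyte miRNAs miR-146b and miR-342. Without cow 9615 the number was 171 (44.1%), with 86 (22.2%) higher and 85 (21.9%) lower, and all 56 were among them.

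The sizes of these differences were modest. The fitted difference reached a fold of 2 for 8 of the 56 miRNAs and stayed under 1.5 for 25. The 17 that rose had a median level of 663 CPM and 7 of them lay above 1000 CPM. The 39 that fell had a median level of 6.91 CPM, with 22 of them under 10 CPM and 8 with fewer than 10 counts in at least 1 library. The median over all 388 miRNAs tested was 13.9 CPM. When the miRNAs tested were ranked by level and cut into 4 equal bins of 97, 10 rose and 2 fell in the most abundant bin, and 2 rose and 20 fell in the next to lowest.

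The balance between rises and falls depended on the scaling. It was 17 against 39 with TMM, 24 against 34 with DESeq2 size factors, 26 against 32 with TMM on library sizes without miR-143, 10 against 43 with the upper quartile and 3 against 52 with the library size alone. The median log2 fold change over the miRNAs tested was -0.04 with TMM, 0.0040 with DESeq2 size factors and -0.11 with the library size alone. None of the 56 changed its direction under any alternative over both breeds or in any fit without 1 cow.

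**Figure D2:**
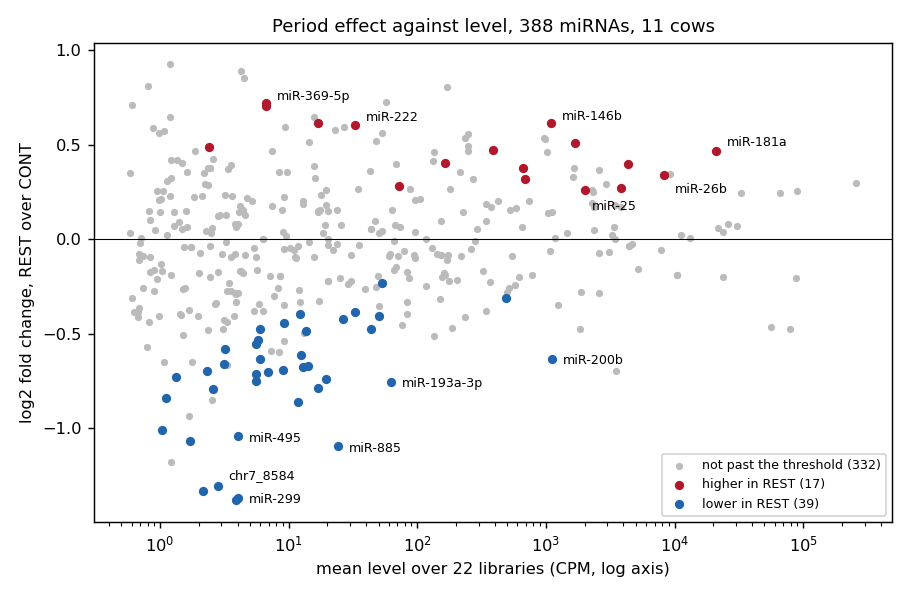
Log2 fold change of REST over CONT (y axis) against the mean level over 22 libraries in CPM (x axis, log scale) for the 388 miRNAs tested. Red points are the 17 miRNAs higher in REST, blue points the 39 lower and grey points the 332 not past the threshold, and the blue points lie mostly to the left of the red ones.

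A set of 14 miRNAs (3.61% of those tested) changed in the fitted direction in all 11 cows, cow 9615 included. In REST 11 were lower, namely miR-299, miR-299-2, miR-495, miR-188, miR-18a, miR-7, miR-1307, miR-345-3p, miR-2483-5p, miR-20b and miR-210, and 3 were higher, namely miR-181a, miR-181b and miR-25. All 14 were among the 56. The sign is that of the scaled level, and some of these changes were close to 0, as for miR-345-3p in cow 9615. The raw counts of miR-2483-5p were 4 in both libraries of cow 1640. They rose from 12 to 16 in cow 1613 and from 20 to 26 in cow 2614, where the sign came with the scaling. With 11 changes of one sign the two-sided exact sign-flip permutation test over cows gives its smallest p, 0.000977, by construction, so that it adds nothing to the choice of these 14. Of the 56 miRNAs, 42 had the same sign in at least 10 cows, against 22.7% of all miRNAs tested, the 56 included. The 56 were chosen by a fit of these cows, so this count only describes them.

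miR-299 belongs to the imprinted DLK1-DIO3 region, which holds one of the largest miRNA clusters of mammals. Its level over the 11 CONT libraries was 3.51 to 10.2 CPM with a median of 4.83 CPM, and over the 11 REST libraries 1.20 to 3.94 CPM with a median of 2.03 CPM. In HOLS it went from 4.75 to 1.47 CPM in cow 1155, from 4.26 to 1.54 CPM in cow 1165, from 6.58 to 1.82 CPM in cow 2182, from 10.2 to 1.49 CPM in cow 8200 and from 4.42 to 1.20 CPM in cow 9195. All HOLS CONT libraries thus lay above all HOLS REST libraries, whereas over both breeds the periods overlapped between 3.51 and 3.94 CPM. The fitted log2 fold change was -1.37 (95% interval -1.81 to -0.93, adjusted p = 0.00313 with edgeR) and -1.34 without cow 9615. The counts behind it were 14 to 96 per library. The entry miR-299-2 differed from miR-299 by at most 6 counts in any library, so the 2 entries are not separate observations.

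miR-495 comes from the same region. It had 2.41 to 9.86 CPM in CONT (median 5.22 CPM) and 1.62 to 6.19 CPM in REST (median 2.22 CPM). It fell in each cow, by 0.25 to 2.04 on the log2 scale, with a fitted log2 fold change of -1.04 (95% interval -1.41 to -0.68, adjusted p = 0.00345 with edgeR). In HOLS its periods did not overlap.

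The region did not move as a whole. Of its 37 miRNAs tested, miR-299, miR-299-2 and miR-495 fell and miR-369-5p rose, with a log2 fold change of 0.72 (adjusted p = 0.0262 with edgeR). The median of the 37 was 0.07, beside -0.04 over all miRNAs tested, and 22 of them lay above 0. Their summed level was 6689 to 23190 CPM in CONT and 9686 to 24680 CPM in REST and was higher in REST in 9 of 11 cows. Most of this sum was miR-127, with a mean of 9297 CPM, so it says little about the scarce members. The means of miR-299, miR-495 and miR-369-5p were 4.02, 4.05 and 6.63 CPM. The share past the threshold was 10.8%, below the 14.4% of all miRNAs tested. Without cow 9615 the region held 9 miRNAs that rose and 3 that fell, a share of 32.4% beside 44.1% of all. In the RefSeq annotation miR-299, miR-495 and miR-369-5p are in one run of neighbouring genes with 31 of the miRNAs tested, of which 13 had a fold change below 0 and 18 above it.

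miR-200b, with its neighbours miR-200a and miR-429, represses the transcription factors ZEB1 and ZEB2 and thereby helps to maintain the epithelial state. It was the only 1 of the 39 miRNAs that fell with a level above 1000 CPM. Its level was 675 to 1740 CPM in CONT (median 1454 CPM) and 626 to 1092 CPM in REST (median 906 CPM). The lowest CONT library was that of cow 9615, and the next were those of MONT cow 1652, with 1003 CPM, and HOLS cow 9195, with 1138 CPM. The level fell in 10 of 11 cows and rose by 0.42 on the log2 scale in cow 9615. Its fitted log2 fold change was -0.63 (95% interval -0.89 to -0.38, adjusted p = 0.00705 with edgeR) and -0.71 without cow 9615.

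Among the 9 epithelial miRNAs tested, only miR-200b passed the threshold (11.1%, beside 14.4% of all miRNAs tested). Of the 9, 8 lay below 0, with a median of -0.20, and miR-205 lay above it, at 0.19. miR-200c had -0.70 (adjusted p = 0.0612 with edgeR), miR-429 had -0.38 and miR-141, the most abundant of them, had -0.20. Without cow 9615 miR-200a, miR-200b, miR-200c and miR-429 were lower in REST, whereas miR-141, miR-205, miR-182, miR-183 and miR-96 did not pass the threshold. The lower ones were 44.4% of the list, beside 21.9% of all miRNAs tested. With TMM on library sizes without miR-143, 3 of the 9 lay above 0, and 1 passed as higher when cow 9615 was also left out. The summed level of the list, most of which was miR-141, was lower in REST in 9 of 11 cows and rose by 0.81 on the log2 scale in cow 9615. The part of a different share of epithelium in the biopsies was not tested.

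The miR-500 and miR-532 cluster lies in an intron of CLCN5 on the X chromosome in mammals. All 7 of its miRNAs tested had a fold change below 0, with a median of -0.35, and miR-500 and miR-188 passed the threshold. These 2 were 28.6% of the cluster, beside 10.1% of all miRNAs tested that were lower. The level of miR-500 in HOLS went from 13.2 to 8.84 CPM in cow 1155, from 15.1 to 7.58 CPM in cow 1165, from 12.4 to 4.45 CPM in cow 2182, from 14.2 to 9.55 CPM in cow 8200 and from 15.2 to 9.84 CPM in cow 9195. These libraries did not overlap between the periods. In MONT miR-500 had 6.53 to 14.6 CPM in CONT and 4.13 to 8.53 CPM in REST. The fitted log2 fold change was -0.69 (95% interval -0.97 to -0.41, adjusted p = 0.00705 with edgeR). miR-188 fell in 11 of 11 cows, with a fitted log2 fold change of -0.58 (adjusted p = 0.00705 with edgeR).

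miR-660, the most abundant miRNA of the cluster at 2609 CPM, had a log2 fold change of -0.28 (adjusted p = 0.0832 with edgeR). Without cow 9615 all 7 miRNAs of the cluster passed the threshold as lower, beside 21.9% of all miRNAs tested. The summed level of the cluster, most of which was miR-660, was lower in REST in 10 cows and rose by 0.68 on the log2 scale in cow 9615. Under the 5 scalings all 7 stayed below 0.

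**Figure D3:**
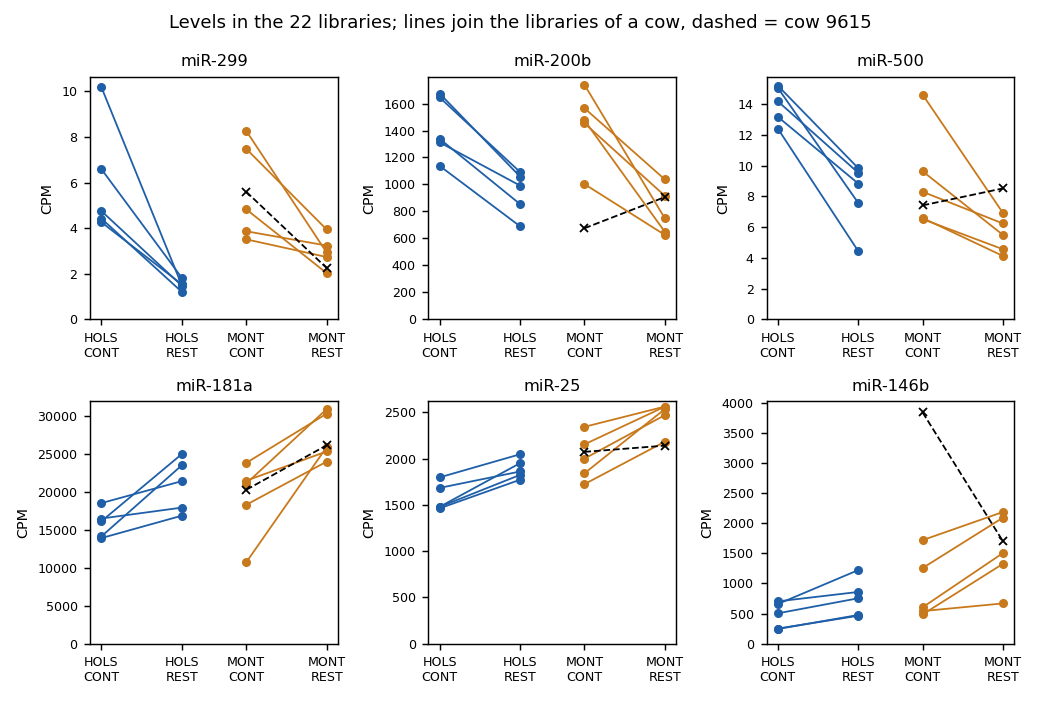
Level in CPM (y axis, from 0) of 6 miRNAs in the CONT and REST libraries of HOLS (blue) and MONT (orange), with a line joining the libraries of a cow and the dashed black line for cow 9615. miR-299 falls and miR-181a and miR-25 rise along every line, and miR-200b, miR-500 and miR-146b go the other way in cow 9615 only.

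miR-181a and miR-181b are made from shared precursor transcripts, and miR-181a is best known for tuning antigen receptor signalling in developing T cells. miR-181a was the most abundant of the 56 miRNAs. It had 10733 to 23845 CPM in CONT (median 18320 CPM) and 16885 to 30933 CPM in REST (median 25017 CPM). The periods overlapped, but each cow had the higher level in REST, by 0.12 to 1.27 on the log2 scale. Its fitted log2 fold change was 0.47 (95% interval 0.25 to 0.68, adjusted p = 0.00858 with edgeR) and 0.50 without cow 9615.

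miR-181b rose in each cow as well, with 289 to 810 CPM in CONT (median 580 CPM), 600 to 1037 CPM in REST (median 736 CPM) and a fitted log2 fold change of 0.38 (adjusted p = 0.0151 with edgeR). The remaining members of the family were miR-181c, at 0.49 (adjusted p = 0.12), and miR-181d, at 0.59 (adjusted p = 0.0962). In cow 9615 miR-181c fell by 1.48 and miR-181d by 1.66 on the log2 scale, opposite to miR-181a and miR-181b in the same libraries. Without this cow all 4 members were higher in REST, beside 22.2% of all miRNAs tested.

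miR-25 is processed with miR-93 and miR-106b from an intron of MCM7. Its level was 1463 to 2344 CPM in CONT (median 1798 CPM) and 1772 to 2563 CPM in REST (median 2141 CPM). Its changes were among the most even, from 0.05 to 0.46 on the log2 scale over the 11 cows, and the lowest was that of cow 9615. The fitted log2 fold change was 0.26 (95% interval 0.13 to 0.39, adjusted p = 0.0129 with edgeR). miR-93 had 0.18 (adjusted p = 0.121) and miR-106b 0.15 (adjusted p = 0.144), and both were higher in REST without cow 9615.

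The related clusters, miR-17-92 and miR-106a-363, whose miRNAs are known for promoting proliferation, did not follow miR-25. miR-18a of the former fell in 11 of 11 cows, with 8.27 to 44.4 CPM in CONT and 5.46 to 15.6 CPM in REST, and a fitted log2 fold change of -0.67 (adjusted p = 0.00772 with edgeR). miR-20b of the latter had a fitted log2 fold change of -0.53 (adjusted p = 0.0264 with edgeR). The abundant members stayed near 0, with a log2 fold change of -0.03 for miR-92a at 4674 CPM, whose sign turned under some scalings, and -0.05 for miR-19b at 131 CPM. Over the 15 miRNAs of the 3 clusters tested 1 rose, 2 fell and the median was -0.09. The share past the threshold was 20%, beside 14.4% of all miRNAs tested.

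miR-204, which lies in an intron of TRPM3, was the other rise that passed the threshold whichever cow was left out. It had 131 to 793 CPM in CONT (median 299 CPM) and 250 to 793 CPM in REST (median 397 CPM), with a fitted log2 fold change of 0.47 (adjusted p = 0.0136 with edgeR). It was higher in REST in 9 cows, and its changes in the other 2 cows were within 0.1 of 0, in cow 9615 at -0.0011.

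Whichever cow was left out, 20 of the 56 miRNAs passed the threshold, and the other 36 lost it in at least 1 of these fits. In REST 16 of them were lower and 4, miR-181a, miR-181b, miR-25 and miR-204, were higher. The lower ones included let-7a-3p, miR-500, miR-326, miR-2898, miR-671, miR-1842 and the predicted miRNA chr7_8584. Beyond the rule by which miRNAs were chosen, let-7a-3p, miR-326, miR-204 and chr7_8584 were picked out here after their values were seen. The 20 had the same sign in at least 9 cows and 10 of them in all 11. Of the other 36, only miR-2478 (10), miR-222 (9) and miR-2483-5p (7) passed the threshold in more than 5 of the 11 fits. For instance, miR-26b and miR-193a-3p passed it in 5, miR-885 in 2, and miR-195, miR-210 and miR-874 in 1.

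**Figure D4:**
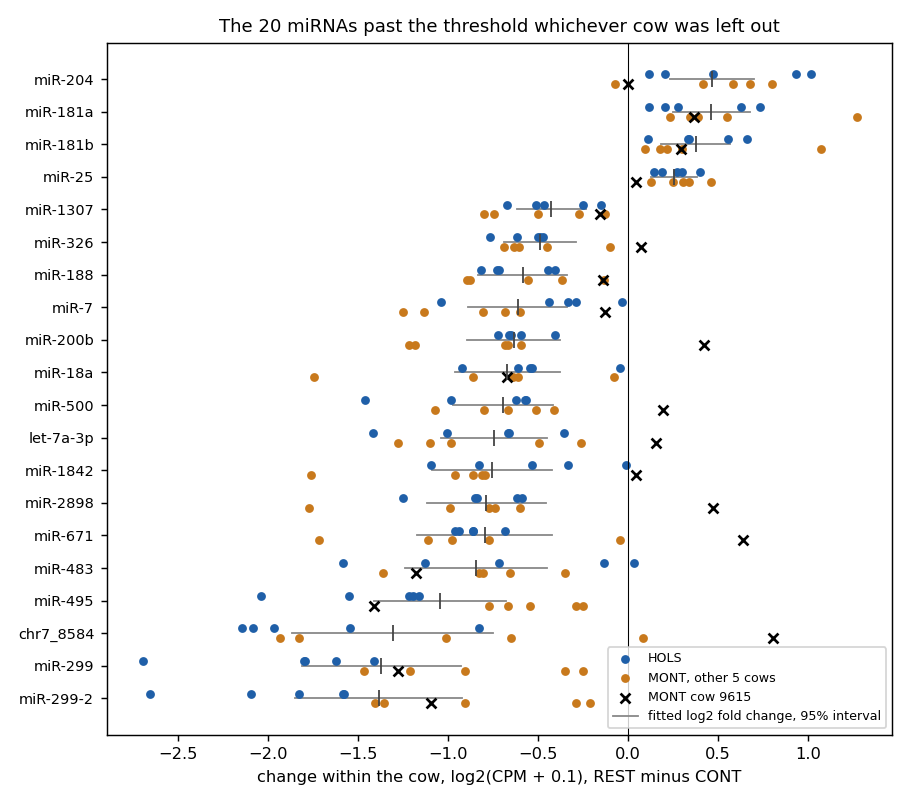
Change within each cow on the log2 scale of CPM with a pseudocount of 0.1 (x axis, REST minus CONT) for the 20 miRNAs (rows) past the threshold whichever cow was left out, with HOLS in blue, MONT in orange and cow 9615 as a cross. The grey line is the 95% interval of the fitted log2 fold change. Nearly all points of a row lie on 1 side of 0, and the crosses of miR-200b, miR-2898, miR-671 and chr7_8584 lie well on the other side.

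Fitting both breeds together brought 17 miRNAs past the threshold that neither breed reached alone. In HOLS alone 61 of 374 miRNAs (16.3%) passed the threshold, and in MONT alone 0 of 349 did in edgeR's test, with 52 at an unadjusted p of at most 0.05. The common set held 39 of the 61, which is 69.6% of the 56 and 63.9% of the 61. Of the 17 added miRNAs 15 were lower in REST and 2, miR-125b and miR-301a, were higher. Their adjusted p in HOLS alone ran from 0.0508 to 0.297, so that several had been close to the threshold. Without cow 9615 MONT alone gave 140 of 358 (39.1%), and 46 of these were among the 61 of HOLS.

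Among the added miRNAs was miR-7, a miRNA of neuroendocrine cells. Its level was 7.05 to 22.3 CPM in CONT (median 13.9 CPM) and 4.62 to 17.6 CPM in REST (median 7.91 CPM). The overlap was wide. The median of HOLS lay above that of MONT in both periods, with 20.1 and 10.9 CPM in CONT and 16.5 and 6.15 CPM in REST. In REST HOLS cow 2182 had only 7.88 CPM, against 15.97 to 17.6 CPM in the other HOLS cows. Within cows it fell in 11 of 11, by 0.03 to 1.25 on the log2 scale, and the fitted log2 fold change was -0.61 (95% interval -0.89 to -0.34, adjusted p = 0.00793 with edgeR, against 0.0934 in HOLS alone).

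miR-1307 was another of them. It had 23.5 to 37.0 CPM in CONT and 17.5 to 26.1 CPM in REST, fell in 11 of 11 cows and had a fitted log2 fold change of -0.42 (adjusted p = 0.00793 with edgeR, against 0.0512 in HOLS alone). miR-483, which lies in an intron of the growth factor gene IGF2, had a fitted log2 fold change of -0.84 (adjusted p = 0.00985 with edgeR, against 0.106 in HOLS alone), with levels from 0.80 to 1.95 CPM in CONT and from 0.31 to 1.29 CPM in REST. As few as 5 counts stood behind a library of miR-483. The others chosen by rule were miR-1842 (log2 fold change -0.75), miR-2478 (-0.70), miR-11986b (-0.64), miR-20b (-0.53), miR-1343-3p (-0.47), miR-345-3p (-0.38) and miR-378 (-0.31).

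miR-378 and miR-33a are encoded within genes of energy and lipid metabolism, PPARGC1B and SREBF2, and both were among the 17. miR-378 went from a median of 574 CPM in CONT (338 to 714 CPM) to 418 CPM in REST (232 to 628 CPM), and was lower in REST in 9 cows, with an adjusted p of 0.027 with edgeR. miR-33a, which targets the cholesterol transporter ABCA1, had a fitted log2 fold change of -0.40 (adjusted p = 0.0448 with edgeR) and was lower in 10 cows. All 7 tested miRNAs of this list lay below 0, with a median of -0.28. The 2 past the threshold were 28.6% of the list, beside 10.1% of all miRNAs tested that were lower. With 1 cow left out miR-378 passed it in 3 and miR-33a in 1 of 11 fits. miR-103 and miR-107, from introns of the pantothenate kinase genes, had -0.28 (adjusted p = 0.0813) and -0.21 (adjusted p = 0.0712).

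Without cow 9615 5 of the 7 (71.4%) were lower in REST, beside 21.9% of all miRNAs tested. The summed level of the list, which was lower in 10 of 11 cows, rose by 0.52 on the log2 scale in cow 9615. The number of the 7 past the threshold was 4 with the library size alone, 1 with DESeq2 size factors and 0 with TMM on library sizes without miR-143, while all 7 stayed below 0 under each.

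The period effect was then compared between the breeds. In edgeR's interaction test 0 of 388 miRNAs (0%) passed the threshold, with 5 at an unadjusted p of at most 0.05, and DESeq2 gave 0 with 7 at such a p. The 5 of edgeR were miR-299-2, miR-299, miR-495, miR-126-3p and miR-12044, of which miR-299-2 and miR-299 are near-identical entries. By chance about 1 in 20 of the miRNAs tested would have such a p, which is more than 5 of 388. All 56 miRNAs had the same sign in the fitted effects of both breeds, which follows in part from their choice by the common effect, and the effect was further from 0 in HOLS for 28 of them. The difference between the breeds had a median standard error of 0.29 on the log2 scale over the 56. Differences of this size and well above it could not be resolved, and equal effects were not shown.

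The falls of miR-299 and miR-495 were larger in HOLS in the fitted values. miR-299 had -1.95 in HOLS and -0.90 in MONT, with 0.00589 for the p of edgeR's interaction test before adjustment and 0.985 after it. miR-495 had -1.48 in HOLS and -0.66 in MONT (0.0108 before adjustment). In REST miR-299 was at 1.20 to 1.82 CPM in HOLS and at 2.03 to 3.94 CPM in MONT.

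Without cow 9615 the interaction test gave 23 miRNAs (5.93%), and DESeq2 gave 33. Of the common set, 5 were among the 23, namely miR-299, miR-299-2, miR-495, miR-125b and miR-222. The stromal miRNAs miR-199a-3p, miR-199a-5p, miR-199b and miR-214 and the abundant miR-148a and miR-148d were also among them, the former with the larger rise and the latter with the larger fall in MONT. Leaving out any other single cow gave 0.

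**Figure D5:**
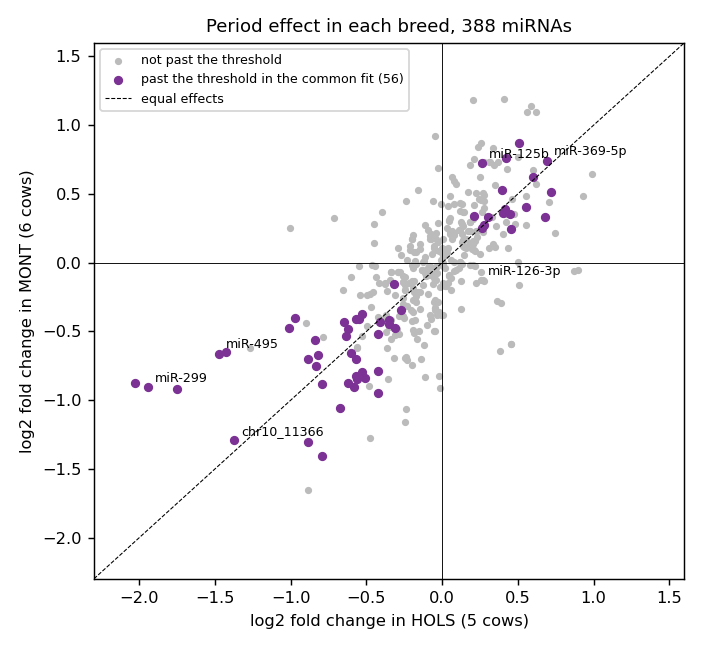
Fitted log2 fold change in MONT (y axis, 6 cows) against that in HOLS (x axis, 5 cows) for the 388 miRNAs tested, with the 56 past the threshold in the common fit in purple and the dashed line for equal effects. The purple points lie in the lower left and the upper right, and miR-299 and miR-495 lie above the line, with the larger fall in HOLS.

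The breeds were also read against each other, since the cows of one had no part in the fit of the other. Of the 61 miRNAs past the threshold in HOLS alone, 59 (96.7%) had the same sign in MONT, namely 28 of 30 that rose and 31 of 31 that fell. Over all 348 miRNAs tested in both it was 280 (80.5%). In MONT 20 of the 61 (32.8%) had an unadjusted p of at most 0.05, against 14.7% of all. With cow 9615 left out it was 50 (82%), against 44.9% of all. The same sign was again held by 59 of the 61, against 77.2% of all. Cow 9615 was set apart by a fit that held the HOLS cows. The readings without it are therefore not independent of HOLS. In the other direction, 126 of 138 miRNAs (91.3%) past the threshold in MONT without cow 9615 had the same sign in HOLS, against 77.2% of all. Across miRNAs the fold changes of the breeds, each fitted alone, correlated with r = 0.726, a description over 348 miRNAs that share libraries and their scaling.

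Within HOLS, 48 of the 56 miRNAs changed in the fitted direction in 5 of 5 cows, against 29.1% of all miRNAs tested, and 21 had CONT and REST levels that did not overlap, against 7.47%. Within MONT, 15 changed in the fitted direction in 6 of 6 cows, against 7.22%. The 56 were chosen by a fit of the same cows, so these counts only describe them. Over the 22 libraries no miRNA had periods that did not overlap. Cow 9615 went against the fit in 38 of the 56, namely 25 of the 39 that fell and 13 of the 17 that rose. The level of miR-10166-5p, for instance, rose by 1.63 on the log2 scale in cow 9615 against a fitted log2 fold change of -0.86.

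miR-146b is induced by NF-kB signalling and limits it, and was counted here among the leukocyte miRNAs with miR-342. It had 244 to 3841 CPM in CONT (median 604 CPM) and 464 to 2187 CPM in REST (median 1222 CPM). Its highest level was the CONT library of cow 9615, while the other 10 cows all had more in REST. Its fitted log2 fold change was 0.61 (95% interval 0.21 to 1.01, adjusted p = 0.0442 with edgeR) and 0.80 without cow 9615.

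miR-342 had 95.8 to 249 CPM in CONT (median 133 CPM) and 118 to 230 CPM in REST (median 194 CPM), with a fitted log2 fold change of 0.40 (adjusted p = 0.0424 with edgeR). Of the 8 leukocyte miRNAs tested these 2 (25%) rose, beside 4.38% of all, 7 lay above 0 and the median was 0.23. The number that rose was 1 with the upper quartile and 0 with the library size alone, and with 1 cow left out miR-146b passed the threshold in 1 and miR-342 in 2 of 11 fits. miR-223, the miRNA typical of neutrophils, had -0.50 (adjusted p = 0.174). The summed level of the list was 2353 to 8698 CPM in CONT and 2520 to 6635 CPM in REST, higher in REST in 10 cows and lower by 0.82 on the log2 scale in cow 9615. Without this cow 6 of the 8 (75%) were higher in REST, beside 22.2% of all miRNAs tested, and 5 with the upper quartile or the library size alone. The part of a different share of leukocytes in the rises of miR-181a, miR-146b and miR-342 was not tested.

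None of the 5 stromal miRNAs, the fibroblast-rich miR-199 family and miR-214, passed the threshold, beside 14.4% of all miRNAs tested. Their median log2 fold change was nevertheless 0.53. miR-199a-3p had 0.53 (adjusted p = 0.0763) and rose by between 0.12 and 1.63 in 10 cows, whereas it fell by 1.04 in cow 9615. Without this cow all 5 passed the threshold as higher in REST, beside 22.2% of all miRNAs tested. The sum of the list was higher in REST in 10 cows and fell by 0.98 in cow 9615. The endothelial miR-126 arms had a median of 0.06, with a sign that turned with the library size alone, and the smooth muscle pair of miR-143 and miR-145 had a median of 0.23. None of the endothelial, smooth muscle, skeletal muscle and red blood cell miRNAs tested passed the threshold with TMM, with or without cow 9615. These lists held only 2, 2, 3 and 3 miRNAs tested. Of all miRNAs tested 14.4% passed it with this cow and 44.1% without it. Without this cow 1 smooth muscle miRNA passed it as higher with DESeq2 size factors and with library sizes without miR-143.

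miR-148a, one of the most abundant miRNAs of the lactating gland, showed how far a single cow bore on the result. Its level was 24708 to 116862 CPM in CONT and 16319 to 97196 CPM in REST. It was lower in REST in 10 cows, by 0.18 to 1.76 on the log2 scale, and higher by 1.84 in cow 9615. The fitted log2 fold change was -0.47 (adjusted p = 0.174 with edgeR) and -0.65 without cow 9615. miR-148d, whose counts followed those of miR-148a in a ratio between 1.32 and 1.48, could not be told from it. The most abundant miRNA of all, miR-143 at 258157 CPM, had a log2 fold change of 0.30 (adjusted p = 0.128) and miR-10b one of 0.26 (adjusted p = 0.155).

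Both arms of some precursors were measured. Of the 56 miRNAs 12 carry an arm in their name, and the other arm was tested for 7. It did not pass the threshold for any of them, beside 14.4% of all miRNAs tested that did. Without cow 9615 the other arm passed it for miR-345 and miR-29d, beside 44.1% of all. In that fit miR-345-5p was lower in REST, at -0.74, and miR-29d-3p was higher, at 0.51, opposite to miR-29d-5p. let-7a-3p fell from a median of 24.8 CPM in CONT (11.8 to 36.7 CPM) to 13.2 CPM in REST (10.4 to 19.4 CPM), in 10 of 11 cows, with a fitted log2 fold change of -0.74 (adjusted p = 0.00705 with edgeR). The mature arm let-7a-5p, at 21624 CPM, had 0.06 (adjusted p = 0.59), and its sign turned with the library size alone. let-7a-5p is made from several precursor genes, which RefSeq places beside different neighbours.

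miR-425-3p fell, at -0.44, beside 0.07 for miR-425-5p, and miR-296-5p fell, at -0.66, beside -0.05 for miR-296-3p. miR-193a-3p fell from a median of 75.8 to 44.6 CPM, at -0.76 (adjusted p = 0.0225 with edgeR), while miR-193a-5p had -0.03. For miR-345 both arms were low in REST, the 3p arm at -0.38 and the 5p arm at -0.60 (adjusted p = 0.0595). The difference between the arms was not tested.

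Further rises among the 17 were those of miR-222, miR-26b, miR-195, miR-10a and let-7i. miR-222, which with miR-221 lowers the cell cycle inhibitor CDKN1B, had 17.6 to 54.0 CPM in CONT (median 23.01 CPM), 26.2 to 71.9 CPM in REST (median 33.6 CPM) and a fitted log2 fold change of 0.60 (adjusted p = 0.0248 with edgeR). Its neighbour miR-221 had 0.35 (adjusted p = 0.12). miR-26b, from an intron of CTDSP1, went from a median of 6899 to 9035 CPM, with 0.34 (adjusted p = 0.0411 with edgeR), and was 1 of 4 among the 17 that rose in cow 9615 too, by 0.88.

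miR-195 of the miR-15 and miR-16 family, known for restraining the cell cycle, had a log2 fold change of 0.32 (adjusted p = 0.0481 with edgeR) beside 0.27 for its neighbour miR-497 (adjusted p = 0.0813). miR-874 had 0.61 and miR-11977 had 0.49 (both with an adjusted p of 0.0413 with edgeR). let-7i, at 0.27 (adjusted p = 0.0471 with edgeR), was the only 1 of 9 let-7 family miRNAs past the threshold (11.1%, beside 14.4% of all miRNAs tested). The median of the family, 0.05, turned below 0 with the library size alone.

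Among the falls not yet named, miR-885 was one of the largest. It had 6.33 to 65.8 CPM in CONT (median 35.1 CPM) and 2.63 to 32.8 CPM in REST (median 14.9 CPM), with a fitted log2 fold change of -1.10 (95% interval -1.76 to -0.44, adjusted p = 0.0329 with edgeR). It fell in 10 cows and rose by 1.47 in cow 9615. miR-2898 had -0.79 (adjusted p = 0.00705 with edgeR) and miR-671 had -0.80 (adjusted p = 0.00997 with edgeR), each lower in REST in the 10 cows other than 9615. miR-2483-5p had -1.01 (adjusted p = 0.0262 with edgeR), with as little as 1 count in a library. miR-210, which is induced under hypoxia, had the smallest of the falls, at -0.23 (95% interval -0.37 to -0.09, adjusted p = 0.035 with edgeR), from a median of 56.0 CPM in CONT (46.2 to 66.2 CPM) to 47.3 CPM in REST (44.1 to 59.3 CPM), and fell in 11 of 11 cows.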

How the data were processed

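Small RNA of mammary biopsies was sequenced by the authors as TruSeq libraries. They clipped adapters and selected read sizes, then counted and annotated reads with ncPRO-seq and miRDeep2 (bovine genome btau5.0.1, miRBase) and ran DESeq2 1.18.1; the submitters' processing notes also name bcl2fastq 2.17.1.14. The deposited counts are whole reads per miRNA without normalization. The normalized counts of the authors, a signal scaled within each breed, were deposited beside them and not used. Columns with the authors' log2 fold change, CONT relative to REST, and with their p-value hold their own comparisons and were not used.

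Counts of both breeds were joined by name and tested with edgeR 4.0.16 (R 4.3.3): TMM over the 22 libraries, filterByExpr (minimum count 10), which kept 388 of 796 miRNAs and at least 99.994% of the counts of a library, a quasi-likelihood F test for the period term, with the cow as a block, Benjamini-Hochberg adjustment and a threshold of 0.05. The interaction was tested with a period term for each breed. Changes within a cow used log2(CPM + 0.1) and a two-sided exact sign-flip permutation test. Alternatives were DESeq2 1.42.0, limma-voom (limma 3.58.1), no block, other scalings and filters, equal weight for the breeds, 1 breed, a threshold of 0.10 and each cow left out. Thinning, the fits without cow 9615 under other settings and the leave-one-out fits of single breeds were added after seeing the data. The steps were tested on simulated data.

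Libraries were paired by the cow number in the labels. Deviations of the paired libraries correlated with r above 0.1 in 10 of 11 cows, the lowest being 0.11 in cow 2614, and with -0.20 in cow 9615. For cows 2614 and 9615 the CONT library correlated more closely with the REST library of another MONT cow than with its own. In each of the other cows its own REST library was the closest within the breed.

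The miRNAs, lists and tests were chosen with earlier results of these data known. The rule named, of miRNAs past the threshold and of one sign in at least 10 cows, the 10 highest and 10 lowest fold changes and the 10 most abundant, then the 10 with the lowest adjusted p that neither breed reached alone, the 5 most abundant miRNAs, and from each list the members past the threshold and the most abundant. Other members of the lists, partner arms and neighbours were named after their values were seen. Of the names in the lists, 17 of 190 are not in the tables. How reads shared by near-identical miRNAs were assigned is not given in the sources used here, and counts such as those of miR-26a and miR-26c, in a ratio of 2.0 in every library, or of let-7b and miR-3596, which are the same, are uncertain. Neighbouring genes come from RefSeq on ARS-UCD2.0, where 367 of the 388 miRNAs matched by name, and no coordinates were used. Sequences were not used here. Intervals are those of the fitted mean effect. The spread between cows enters their width, but they do not give the range of the changes of single cows. The depth limits the scarce miRNAs.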

Additional observations from a re-analysis of the deposited data

Results flagged for a closer look

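For the levels of the 58 miRNAs chosen by rule and the total counts, 20 of 236 groups of 5 or 6 libraries held 1 library far from the rest, where the gap to the nearest library exceeded Dixon's 95% critical value. Chance gives about 1 in 20 groups, here 11.8. Of the 20 libraries, 5 came from cow 2182, 4 from cow 2614, 3 each from cows 8200 and 9615, 2 from cow 5663 and 1 each from cows 1155, 1640 and 9195. All 20 concern levels, and all values are CPM.

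In MONT CONT, cow 9615 had 3841 CPM of miR-146b against 486 to 1719 in the other cows, 121650 of miR-26a against 47701 to 58311 and 452 of miR-221 against 144 to 238. Cow 2614 had 44.4 of miR-18a against 8.27 to 19.1, 5.73 of miR-188 against 2.31 to 3.48, 10.8 of miR-1343-3p against 5.01 to 6.89 and 22859 of miR-27b against 29900 to 33161. Cow 5663 had 36557 of miR-141 against 10772 to 20165. In MONT REST, cow 5663 had 762 of miR-181b against 600 to 643, and cow 1640 had 35.9 of miR-345-3p against 18.8 to 25.2.

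In HOLS REST, cow 2182 had 118 of miR-342 against 181 to 204, 7.88 of miR-7 against 15.97 to 17.6, 1.55 of miR-188 against 2.86 to 3.32 and 28631 of let-7a-5p against 18476 to 20120. Cow 1155 had 2.83 of miR-11977 against 2.15 to 2.34, cow 8200 had 24.6 of miR-10166-5p against 6.76 to 11.9 and cow 9195 had 17.5 of miR-1307 against 23.6 to 26.1. In HOLS CONT, cow 8200 had 180 of miR-133a against 55.3 to 78.8 and 33162 of miR-27b against 26924 to 28520, and cow 2182 had 796 of miR-29a against 1010 to 1095. No cause was tested.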

How the results depend on the processing

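Of the 56 miRNAs, 16 passed the threshold in all 24 alternatives over both breeds. The count of 56 became 110 with DESeq2, 133 at a threshold of 0.10 and 0 in MONT alone, and lay between 21 (without cow 1155) and 171 (without cow 9615) when 1 cow was left out. Without cow 9615 it was 167 with DESeq2, 172 with limma-voom, 173 with DESeq2 size factors, 156 with the library size alone, 162 with the upper quartile and 174 with library sizes without miR-143. With 1 cow left out the interaction gave 0 to 23, HOLS alone 26 to 56 and MONT alone 0 to 140, with 23 and 140 without cow 9615 only. The interaction without cow 9615 gave 33 with DESeq2. The causes were not tested.

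The cow pairs the libraries by the labels. Without the replicate block the common fit gave 35 miRNAs in place of 56, with 34 shared, and 121 when cow 9615 was also left out.

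None of the sign changes concerned a miRNA past the threshold. In HOLS alone miR-30a-5p turned to 0.0349, miR-141 to 0.0068, miR-92a to 0.101, miR-27b to -0.0236 and miR-16a to 0.0955, and in MONT alone miR-126-5p turned to -0.0685 and miR-486 to -0.276. With the library size alone miR-486 turned to -0.0538, let-7a-5p to -0.0129 and miR-27b to -0.0043, and with the upper quartile miR-486 to -0.0052. miR-92a turned to 0.0104 with DESeq2, 0.0125 with DESeq2 size factors, 0.0282 without miR-143 and 0.0064 with a mean count of at least 10. With 1 cow left out miR-486 ranged from -0.0292 to 0.145 and miR-92a from -0.0525 to 0.0436. Of 1508 comparisons of miRNAs chosen by rule with an alternative, 1206 kept direction and side of the threshold, 261 lost and 17 gained the threshold and 24 changed sign. Depth limited the scarce miRNAs most, down to 1 count in a library.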

Other observations

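Without cow 9615, 115 miRNAs passed the threshold that did not with all 11 cows, many of them abundant. miR-26a, at 65937 CPM, had a log2 fold change of 0.32 without this cow and 0.25 with it. miR-127, an imprinted miRNA of the DLK1-DIO3 region at 9297 CPM, had 0.48 and 0.34. miR-200c had -0.86 and -0.70, and miR-375, a miRNA of secretory epithelia at 1854 CPM, had -0.61 and -0.48. miR-375 fell by 0.10 to 2.34 in the other 10 cows and rose by 1.26 in cow 9615. miR-101 and miR-192, at 0.19 and 0.20 without this cow, rose in it as well, by 0.38 and 0.12. These miRNAs were named after their values were seen.

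The miR-30 family, 6 miRNAs abundant in secretory epithelium, had no member past the threshold, with a median of -0.14, and 2 lower ones without cow 9615. The miR-29 family had a median of -0.0035 over 4 miRNAs and the cluster of miR-424 and miR-450, linked to mammary involution, one of 0.23 over 6, with none past the threshold in either list. Without cow 9615, 2 of the former were higher and 1 was lower, and 1 of the latter was higher. Over the 6 miRNAs of the miR-23, miR-27 and miR-24 clusters none passed it, with a median of 0.06 that turned below 0 with the library size alone, and miR-24-3p was higher without cow 9615. In the order of these lists, the shares past the threshold without this cow were 33.3%, 75%, 16.7% and 16.7%, beside 44.1% of all miRNAs tested.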
